A study of Mus musculus with 47 samples.

Results

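Cyp4a10, Cyp4a14, Cyp4a12a, Cyp4a12b, Cyp4a31 and Cyp4a32 are 6 mouse genes of the Cyp4a subfamily of cytochrome P450 enzymes. Their probes were chosen by gene name in the annotation of the array, whatever their signal. Of the 6 genes, 5 had a probe of their name, and together they had 8 probes: 3 for Cyp4a10, 2 for Cyp4a31 and 1 each for Cyp4a14, Cyp4a12a and Cyp4a12b. All 8 probes passed the filter on low signal, which left 32979 of 56605 probes. No probe was named Cyp4a32, so no value is given for that gene. Its RefSeq transcript was, however, listed next to that of Cyp4a10 on all 3 Cyp4a10 probes, whose signal may therefore hold RNA of both genes.

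Cyp4a enzymes hydroxylate the omega carbon, the end of the chain opposite the acid group, of fatty acids and of eicosanoids such as arachidonic acid. Alcohol and aldehyde dehydrogenases then turn the product into a dicarboxylic acid, which is shortened in peroxisomes. In rodent liver, Cyp4a10 and Cyp4a14 are classical target genes of the fatty acid receptor PPARA, and Cyp4a12a, which makes the eicosanoid 20-HETE, is known for male-specific expression under control of androgens and the growth hormone pattern.

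Liver RNA was measured on 47 one-colour arrays, 1 per mouse, in 8 groups that combined sex, genotype and antibiotic treatment. All mice were C57BL/6J, Pxr+/+ or Pxr-/- littermates from heterozygous dams, 6 months old and killed at ZT6, 6 h after lights on. Pxr-/- mice carried a constitutive deletion of the pregnane X receptor in all tissues, not in the liver alone. ATB mice drank water with vancomycin at 0.5 g/L and both ampicillin and neomycin at 1 g/L for 2 weeks, and Cont mice drank plain tap water. Each group held 6 mice except male Pxr-/- Cont, with 5, and came from 2 cages. The cage of each mouse was not given, so cage and group effects cannot be told apart.

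The 75th percentile of raw signal ranged from 306 to 492.5 over the arrays, against a median background of 15 to 21, and 31087 to 34477 probes per array were well above background. The arrays lay on 6 slides washed in 3 batches, and wash batch was a term of each fit. The hepatocyte list (10 genes such as Alb and Ttr) was well above background in every mouse. The single Nr1i2 (Pxr) probe was also well above background in all Pxr-/- livers and its ranges overlapped between genotypes. Whether it lies in the deleted stretch is not given in the sources used here, so it does not check the genotype labels. In bulk liver, fewer cells of a type and less RNA per cell cannot be told apart.

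All 8 probes lie on chromosome 4 (build mm9, by the coordinates of the array's annotation). The Cyp4a14 probe lies at chr4:115168609-115168668 on the minus strand and starts at base 78 of its transcript. The 3 Cyp4a10 probes are called here probe 1 (chr4:115205268-115205756, base 1528), probe 2 (chr4:115197445-115197926, base 782) and probe 3 (chr4:115198463-115198522, base 1193), all on the plus strand. The coordinates of probes 1 and 2 span 489 and 482 genomic bases for a probe of 60 bases. For Cyp4a31, probe 1 lies at chr4:115242872-115242931 (base 736) and probe 2 at chr4:115251553-115251612 (base 2441), both on the plus strand. The Cyp4a12a probe is at chr4:115005258-115005317 and the Cyp4a12b probe at chr4:115111580-115111639, both on the plus strand.

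The 4 probes that start nearest the 5′ end of their transcripts are shown, 5′ to 3′, as the reagents that gave the values of Cyp4a10, Cyp4a14 and Cyp4a31. Capitals mark the longest run shared by Cyp4a10 probe 2 and Cyp4a31 probe 1, which is 11 bases of 60.
Cyp4a10 probe 2 (A_52_P6588): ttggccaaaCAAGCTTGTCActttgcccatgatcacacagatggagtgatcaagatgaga
Cyp4a10 probe 3 (A_55_P2092030): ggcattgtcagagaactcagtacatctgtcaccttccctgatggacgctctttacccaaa
Cyp4a14 (A_66_P118338): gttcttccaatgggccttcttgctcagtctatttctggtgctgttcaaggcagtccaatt
Cyp4a31 probe 1 (A_55_P2024033): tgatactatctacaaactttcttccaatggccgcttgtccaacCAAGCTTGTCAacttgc
No pair among the 8 probes shared an unbroken run of more than 12 bases, the length shared by the probes of Cyp4a14 and Cyp4a31 probe 1. The probes start at different places in their transcripts, and those of Cyp4a10 shared 6 or 7 bases with each other, so these runs do not show whether a probe matches the transcript of another gene. The annotation listed a Cyp4a10 transcript on Cyp4a31 probe 1 and a Cyp4a12b transcript on the Cyp4a12a probe. Cyp4a31 probe 1 and the Cyp4a12a probe may thus report both genes, whereas the probes of Cyp4a14 and Cyp4a12b and Cyp4a31 probe 2 listed no other gene.

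**Figure D1:**
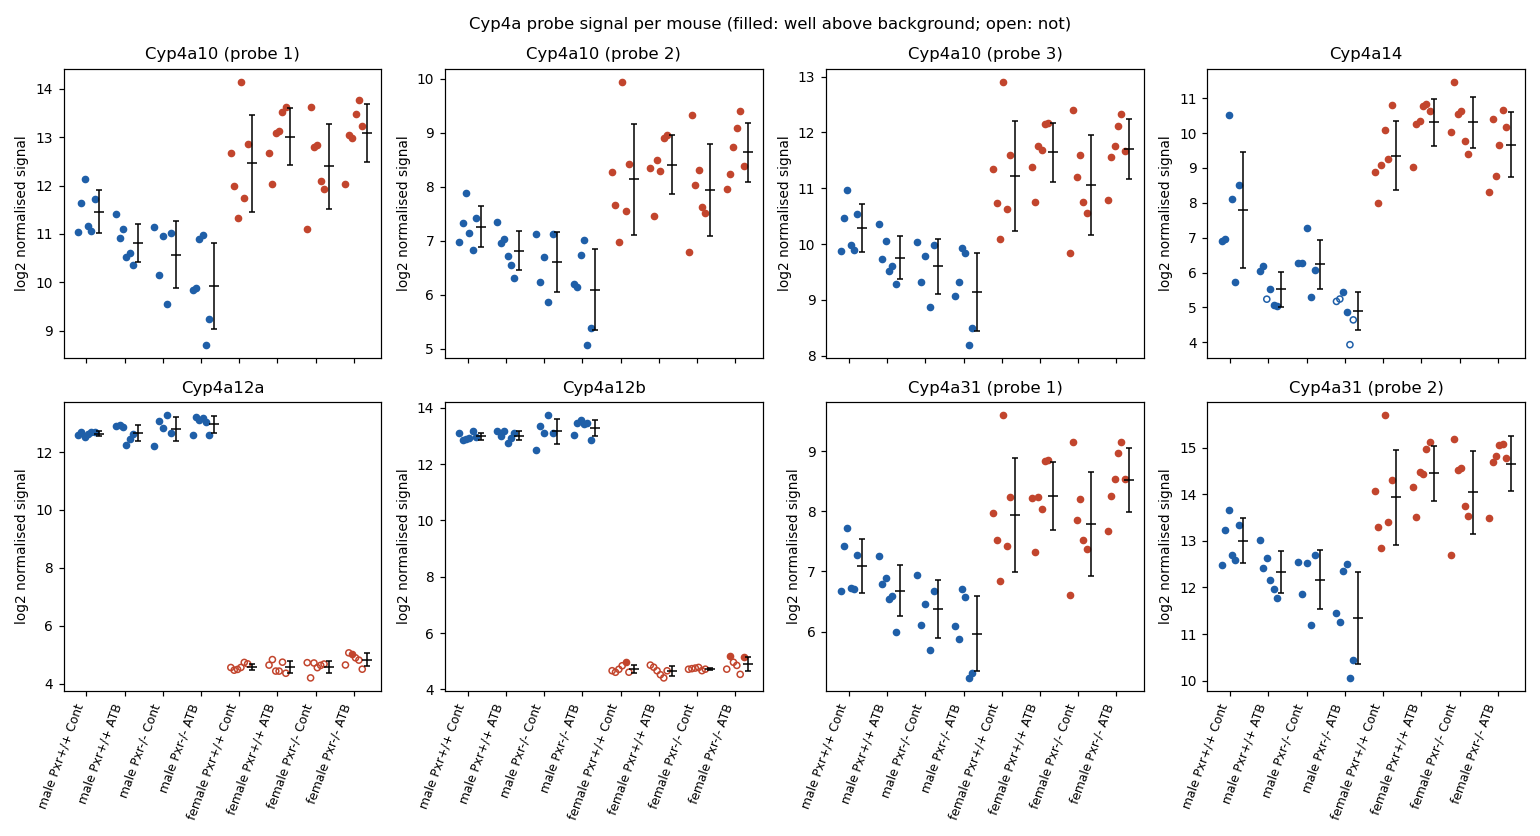
Signal of each Cyp4a probe in each mouse, on the log2 scale after normalisation, for the 8 groups (blue, males; red, females). Filled points were well above background and open points were not, and black bars give the mean and SD. Cyp4a12a and Cyp4a12b lie at 12.20 or above in every male and at 5.20 or below in every female, and the group means of the other 6 probes lie higher in females.

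The Cyp4a genes fell into a male-specific pair and a female-predominant trio. Cyp4a12a and Cyp4a12b were well above background in all 23 males and in few females. Cyp4a14, Cyp4a10 and Cyp4a31 were higher in females, by a gap that was narrowest in Pxr+/+ Cont mice, where Cyp4a31 was not called. For no probe did the change of the gap with treatment or genotype itself pass the test. A probe was called when its Benjamini-Hochberg adjusted p from limma, over all 32979 probes, was at most 0.05 and its fold change was above 1.2.

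The Cyp4a12a signal of Pxr+/+ Cont males ranged from 12.52 through a median of 12.66 to 12.71 (log2). In Pxr+/+ Cont females it ranged from 4.47 through 4.56 to 4.74, and in none of these 6 mice was it well above background. The sexes were thus separated by about 8 log2 units, far beyond the SD of 0.07 in males and 0.11 in females. On the main scaling, the lower bound on the male excess was about 251-fold in Pxr+/+ mice, both Cont and ATB, and about 285-fold in Pxr-/- Cont mice. These bounds set the mean of the males against the mean, in the dim group, of the higher of the probe's own value and the lowest value of a probe well above background on the same array. In Pxr-/- ATB mice 1 of 6 females was above background, and the fitted difference of 8.13 (SE 0.14) was measured against a group mostly at background. It ran from 7.14 to 10.50 under other settings. Under those settings the fitted difference ran from 6.87 to 11.28 in Pxr+/+ Cont, 6.79 to 11.20 in Pxr+/+ ATB and 7.05 to 11.30 in Pxr-/- Cont mice. The bounds above thus hold for the main scaling only. Cyp4a12a passed the filter on low signal only through its male groups, so its test against females was not independent of that filter. The adjusted p-values of the 4 comparisons (limma), from 2.16e-38 to 1.05e-37, are therefore descriptive only.

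Cyp4a12b, whose product closely resembles that of Cyp4a12a, followed the same course. Since the Cyp4a12a probe also listed a Cyp4a12b transcript, the probes of these genes are not independent readings. In Pxr+/+ Cont males its signal ran from 12.85 through 12.94 to 13.16, and in Pxr+/+ Cont females from 4.61 through 4.69 to 4.97. On the main scaling, the lower bound on the male excess was about 319-fold in Pxr+/+ ATB mice and about 346-fold in Pxr-/- Cont mice, where no female was above background. Under other settings the fitted differences of these 2 comparisons ran from 7.08 to 10.78 and from 7.38 to 10.75, so the bounds hold for the main scaling only. In Pxr+/+ Cont mice, with 1 of 6 females above background, the fitted difference was 8.25 (SE 0.13), and in Pxr-/- ATB mice, with 2 of 6, it was 8.39 (SE 0.13). These too were measured against females mostly at background, and ran from 7.20 to 10.80 and from 7.42 to 10.58 under other settings. The ranges of males and females did not overlap for either gene in any of the 4 comparisons. Cyp4a12b too passed the filter on low signal only through male groups, so for both genes this separation is a description.

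Among the female-predominant genes, Cyp4a14 showed the widest gap. Its signal in Pxr+/+ Cont females ran from 7.99 through 9.17 to 10.81, and in Pxr+/+ Cont males from 5.72 through 7.54 to 10.52. The ranges overlapped, since male replicate 3 at 10.52 exceeded 5 of the 6 females. The difference, male minus female, was -1.56 (SE 0.51, adjusted p = 0.0164 by limma), which is 2.95-fold lower in males. The call was lost without male replicate 5 (-1.12, adjusted p = 0.0696 by limma) or female replicate 6 (-1.23, adjusted p = 0.0633), and the difference was -0.52, -2.75 and -2.29 within wash batches 1, 2 and 3. In Pxr+/+ ATB mice males ran from 5.04 through 5.39 to 6.17 and females from 9.03 through 10.49 to 10.82. The lowest female thus lay far above the highest male, and the difference was -4.79 (SE 0.51, adjusted p = 8.61e-10 by limma), 27.7-fold.

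In Pxr-/- Cont males the 5 Cyp4a14 values were 6.28, 6.26, 7.28, 5.29 and 6.06. All lay below those of Pxr-/- Cont females, which ran from 9.39 through 10.29 to 11.47, and the difference was -4.07 (SE 0.53, adjusted p = 1.76e-07 by limma). In Pxr-/- ATB mice males ran from 3.93 through 5.02 to 5.44, with 2 of 6 well above background, and females from 8.32 through 9.91 to 10.65. The difference of -4.78 (SE 0.51, adjusted p = 8.59e-10 by limma) was thus measured against males near background. With the background-corrected signal it was -6.99, and that in Pxr+/+ ATB mice -5.81. In order of their means, the Cyp4a14 groups ran from female Pxr-/- Cont (10.31 ± 0.73) and female Pxr+/+ ATB (10.31 ± 0.67) over female Pxr-/- ATB (9.66 ± 0.93), female Pxr+/+ Cont (9.35 ± 0.98), male Pxr+/+ Cont (7.79 ± 1.66), male Pxr-/- Cont (6.23 ± 0.71) and male Pxr+/+ ATB (5.52 ± 0.50) to male Pxr-/- ATB (4.88 ± 0.55; all SD). The ranges of each pair of neighbours in that order overlapped.

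Cyp4a10, the other classical PPARA target of the subfamily, had a smaller gap between the sexes. On probe 1, Pxr+/+ Cont males ran from 11.03 through 11.41 to 12.13 and females from 11.33 through 12.34 to 14.15. These ranges overlapped, and the difference of -0.998 (SE 0.40, adjusted p = 0.0481 by limma) lay close to the threshold. Probe 3 gave -0.93 (SE 0.36, adjusted p = 0.0444 by limma) and probe 2 gave -0.88 (SE 0.37, adjusted p = 0.0605 by limma), so that 2 of the 3 probes were called. In Pxr+/+ ATB mice the males on probe 1 ran from 10.36 through 10.75 to 11.40 and the females from 12.02 through 13.11 to 13.63, without overlap. The gap was then -2.20 (SE 0.40), against -1.83 (SE 0.42) in Pxr-/- Cont mice and -3.17 (SE 0.40) in Pxr-/- ATB mice, with adjusted p-values of 8.67e-05, 0.00185 and 5.64e-08 (limma). All 3 probes were called in each of these 3 comparisons.

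Cyp4a31, a neighbour of Cyp4a10 in the gene cluster, moved much as Cyp4a10 did. On its probe 2, which listed no other gene, Pxr+/+ Cont males ran from 12.48 through 12.97 to 13.67 and females from 12.84 through 13.74 to 15.70. The difference of -0.94 (SE 0.41, adjusted p = 0.07 by limma) was not called, and neither was probe 1 at -0.84 (SE 0.36). In Pxr-/- ATB mice the males ran from 10.06 through 11.35 to 12.51 and the females from 13.50 through 14.80 to 15.09, which did not overlap. Probe 2 was lower in males by 4.35-fold in Pxr+/+ ATB mice, 3.67-fold in Pxr-/- Cont mice and 9.94-fold in Pxr-/- ATB mice, each called with an adjusted p of at most 0.00192 (limma).

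Over the 8 probes, 5 were called between the sexes in Pxr+/+ Cont mice, 2 higher in males and 3 higher in females, and 8 in each of the other 3 comparisons, 2 higher in males and 6 higher in females. The 2 higher in males, Cyp4a12a and Cyp4a12b, had passed the filter on low signal only through male groups. Their calls and their lack of overlap are thus not independent of that filter. Of all tested probes, 1.97% were called higher in males and 28.7% higher in females in Pxr+/+ Cont mice. The shares were 3.3% and 8.16% in Pxr+/+ ATB mice, 2.24% and 12.6% in Pxr-/- Cont mice, and 2.21% and 23.5% in Pxr-/- ATB mice. Male and female ranges did not overlap for 2 of the 8 probes in Pxr+/+ Cont mice against 15.8% of all probes. They did not overlap for 8 of 8 against 6.15% in Pxr+/+ ATB mice, 4 of 8 against 6.63% in Pxr-/- Cont mice, and 8 of 8 against 9.93% in Pxr-/- ATB mice. The 3 female-higher calls in Pxr+/+ Cont mice thus stood against a background in which 28.7% of probes were called the same way, and the median probe lay at -0.20. With quantile normalisation that median was 0.02, only Cyp4a12a and Cyp4a12b were called, and Cyp4a14 stood at -1.30 (adjusted p = 0.0808 by limma). The count of 5 became 8 without female Pxr+/+ Cont replicate 3, 2 without male replicate 5 or female replicate 6, and 3 without male replicate 1, 2, 4 or 6 or female replicate 1 or 4. Within each of the 3 wash batches, and under 4 other scalings of the signal, the 6 female-predominant probes were lower in males in all 4 comparisons.

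**Figure D2:**
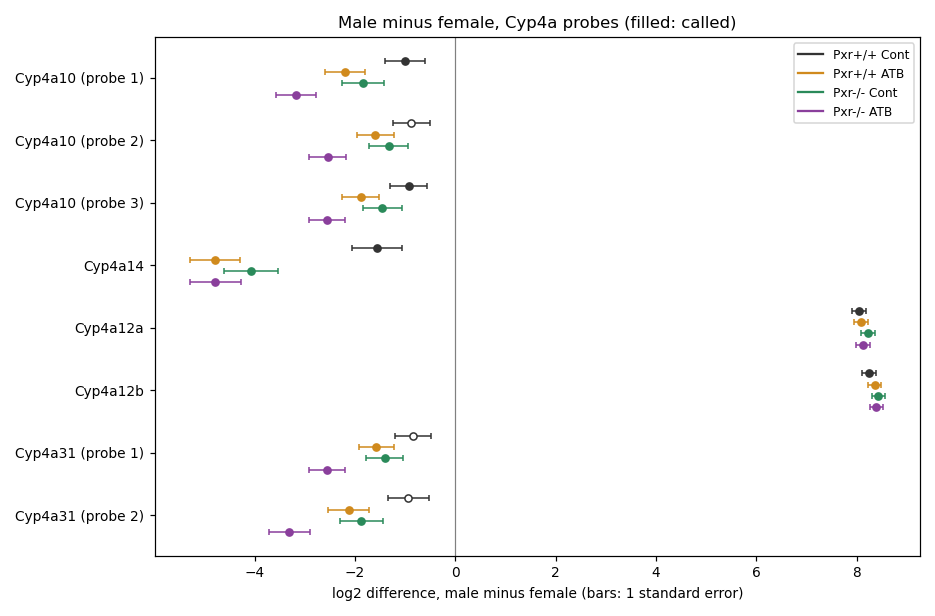
Male minus female difference of each Cyp4a probe (log2, horizontal axis) in the 4 combinations of genotype and treatment, with bars of 1 standard error. Filled points were called and open points were not. Cyp4a12a and Cyp4a12b lie near 8 throughout, and Cyp4a14 moves from -1.56 in Pxr+/+ Cont mice to -4.79 in Pxr+/+ ATB mice.

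The ATB comparisons ask how expression differed with antibiotic treatment in each sex and genotype. Whether a difference came with the loss of gut bacteria or with the drugs themselves was not tested. Cyp4a14 was the single Cyp4a probe called in the main fit, as lower with ATB in Pxr+/+ males. In Cont males its values were 6.91, 6.97, 10.52, 8.10, 5.72 and 8.52, and in ATB males 6.06, 6.17, 5.24, 5.54, 5.07 and 5.04, of which 5 of 6 were well above background. Of the 6 Cont males, 5 lay above every ATB male, and Cont replicate 5 lay among them, so the ranges overlapped. The difference was -2.27 (SE 0.51, adjusted p = 0.0164 by limma), 4.83-fold lower with ATB. Of all tested probes, 0.139% were called lower in this comparison, against 1 of 8 Cyp4a probes, and the ranges did not overlap for 3.71% of all probes and for none of the 8.

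This call rested on few mice. Without Cont replicate 3, the highest control, the difference was -1.71 (adjusted p = 0.0696 by limma), and without Cont replicate 6 or ATB replicate 5 the adjusted p was 0.0529 or 0.0515. Within wash batches 1, 2 and 3 the difference was -2.31, -1.61 and -3.48. All 3 had the direction of the whole, but neither batch with a test called it (adjusted p = 0.302 and 0.802 by limma). With slide in place of wash batch the adjusted p was 0.0167.

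In Pxr-/- males Cyp4a14 differed by -1.35 between ATB and Cont (SE 0.53, unadjusted p = 0.015, adjusted p = 0.655 by limma). Only 2 of the 6 ATB mice were well above background there, and with the background-corrected signal the difference was -3.33 and was called (adjusted p = 0.0159 by limma). In females it was 0.96 higher with ATB in Pxr+/+ mice (SE 0.51, adjusted p = 0.509) and 0.64 lower in Pxr-/- mice (log2 difference -0.64, SE 0.51, adjusted p = 0.656 by limma). Neither passed the test. The difference between the ATB effects of Pxr-/- and Pxr+/+ males was 0.92 (SE 0.74, adjusted p = 0.85 by limma), which was not called, and its sign turned when the background-corrected signal was used. The ATB effect of Pxr+/+ males less that of Pxr+/+ females was -3.23 (SE 0.72, unadjusted p = 5.18e-05), yet its adjusted p was 0.107 (limma). That adjusted p ran from 0.0196 to 0.279 over the 33 alternatives that kept all wash batches, and was 0.969 and 0.693 within wash batches 1 and 2 (limma). It passed 0.05 without male Pxr+/+ Cont replicate 5 (0.0196), female Pxr+/+ Cont replicate 6 (0.0397) or female Pxr+/+ ATB replicate 1 (0.0487 by limma), and the difference was -3.70, -2.48 and -3.30 within wash batches 1, 2 and 3.

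Cyp4a10 and Cyp4a31 pointed the same way as Cyp4a14 in males, by less, and none of their probes was called. In Pxr+/+ males the ATB difference was -0.65 (SE 0.40), -0.44 (SE 0.37) and -0.53 (SE 0.36) on Cyp4a10 probes 1, 2 and 3, and -0.41 (SE 0.36) and -0.67 (SE 0.41) on Cyp4a31 probes 1 and 2. In Pxr-/- males these 5 probes lay between -0.82 and -0.41. In females all 5 had positive differences, of 0.27 to 0.55 in Pxr+/+ mice and 0.62 to 0.73 in Pxr-/- mice, although within wash batch 2 those of Pxr+/+ females were -0.56 to -0.18. The lowest adjusted p among these 20 values was 0.383 (limma). The ATB effect of males less that of females was, on Cyp4a10 probe 1, -1.20 (SE 0.56, adjusted p = 0.37) in Pxr+/+ mice and -1.34 (SE 0.58, adjusted p = 0.9 by limma) in Pxr-/- mice.

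Cyp4a12a and Cyp4a12b hardly moved with ATB in males. The Cyp4a12a difference was 0.03 (SE 0.14) in Pxr+/+ males and 0.15 (SE 0.14) in Pxr-/- males, and that of Cyp4a12b was 0.03 (SE 0.13) and 0.12 (SE 0.14). In Pxr+/+ males the sign of both turned under each of the 4 other scalings. The median of all probes was 0.10 here and 0.00 with quantile normalisation. No Cyp4a probe was called with ATB in Pxr-/- males, Pxr+/+ females or Pxr-/- females, where 0.0728%, 0.0121% and 0.0273% of all probes were called. At an unadjusted p under 0.05 there was 1 of 8 in Pxr-/- males (Cyp4a14), 0 in Pxr+/+ females and 1 in Pxr-/- females (Cyp4a31 probe 1). None of the 8 was called for a difference between ATB effects: Pxr-/- less Pxr+/+ in males (0.0121% of all probes) and females (0%), and males less females in Pxr+/+ (0.0303%) and Pxr-/- mice (0.00303%).

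**Figure D3:**
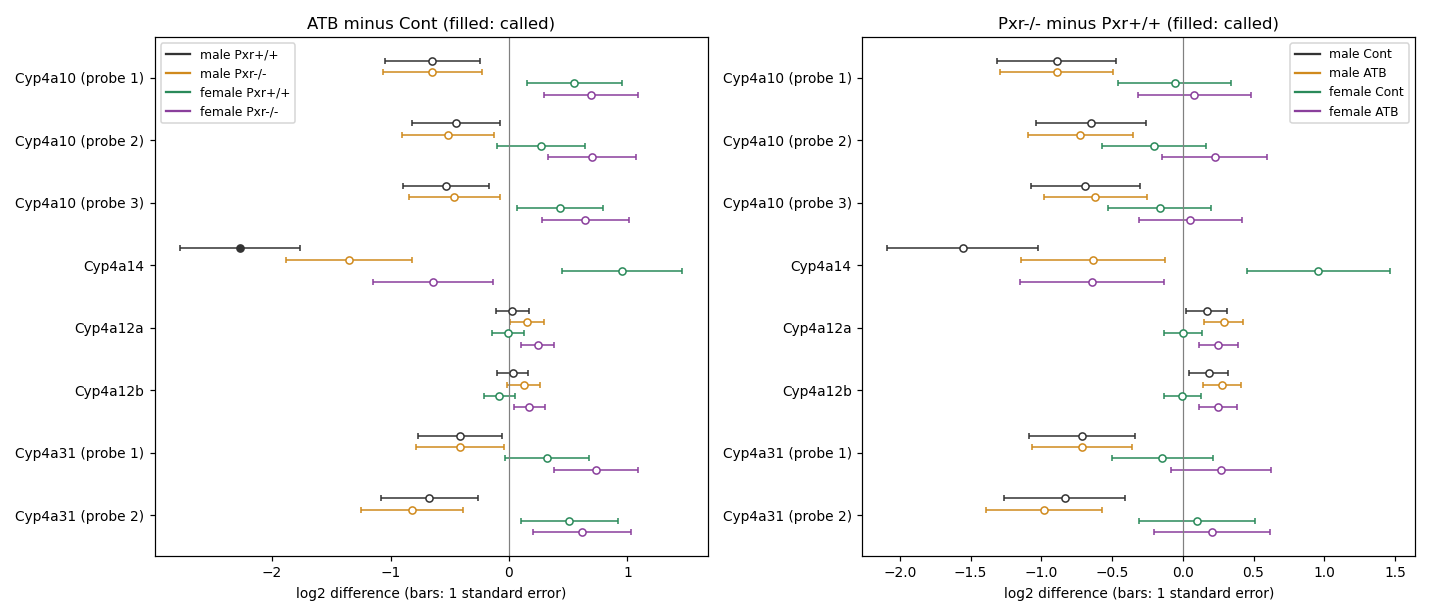
Log2 differences of each Cyp4a probe for ATB minus Cont in 4 sex and genotype groups (left) and Pxr-/- minus Pxr+/+ in 4 sex and treatment groups (right), with bars of 1 standard error. Filled points were called and open points were not. Cyp4a14 in Pxr+/+ males, at -2.27, is the one filled point, and the Cyp4a10 and Cyp4a31 probes lie below 0 in males on the left and above 0 in females.

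The comparisons of Pxr-/- with Pxr+/+ mice ask what the loss of the receptor did in each sex and treatment. No Cyp4a probe was called in any of the 4 comparisons, in which 0.146% (male Cont), 0.864% (male ATB), 3.01% (female Cont) and 0.158% (female ATB) of all probes were called. At an unadjusted p under 0.05 there were 2, 4, 0 and 0 of 8. In male Cont mice these were Cyp4a14, at -1.56 (SE 0.53, unadjusted p = 0.00558, adjusted p = 0.679 by limma), and Cyp4a10 probe 1, at -0.89 (SE 0.42, adjusted p = 0.997). In male ATB mice they were Cyp4a31 probe 2, at -0.98 (SE 0.41), Cyp4a10 probe 1, at -0.89 (SE 0.40), Cyp4a12a, at 0.29 (SE 0.14), and Cyp4a12b, at 0.28 (SE 0.13), with adjusted p-values from 0.163 to 0.202 (limma).

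All 6 female-predominant probes were lower and both Cyp4a12 probes higher in Pxr-/- than in Pxr+/+ males, in Cont and in ATB mice alike. The 6 were lower in each wash batch, whereas in Cont mice Cyp4a12a was -0.043 in batch 3 and Cyp4a12b -0.014 in batch 1, and no sign turned under the 4 other scalings. Neither set of differences passed the test. In Cont females Cyp4a14 differed by 0.96 (SE 0.51, adjusted p = 0.271 by limma), with a range of 9.39 to 11.47 in Pxr-/- against 7.99 to 10.81 in Pxr+/+ mice. That value depended on the wash batch: it was 2.03 in batch 1, 0.54 in batch 2 and -1.42 in batch 3. The Cyp4a10 and Cyp4a31 probes lay between -0.20 and 0.10 in Cont females and between 0.05 and 0.27 in ATB females. The PXR effect of males less that of females on Cyp4a14 was -2.51 in Cont mice (SE 0.74, unadjusted p = 0.00141, adjusted p = 0.91 by limma) and 0.01 in ATB mice (SE 0.72). No Cyp4a probe was called for that difference in Cont (0.0152% of all probes) or ATB mice (0.0364%).

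Between mice of one group, the Cyp4a10 and Cyp4a31 probes rose and fell together. Over the 47 mice, after subtracting group means, the 10 pairs among these 5 probes had Pearson r of 0.959 to 0.988 and Spearman rho of 0.964 to 0.985. Each had p = 1e-05 by permutation of mice within groups, the smallest that 100000 permutations can give, and an adjusted p for r of 2.545e-05 over 28 pairs. Pearson r of these pairs stayed at 0.954 or above without the 2 mice farthest from the median of 1 probe of the pair, and at 0.941 or above within each wash batch. Since shared transcripts were listed for Cyp4a10 probes and Cyp4a31 probe 1, and probes of 1 gene share its RNA, these pairs are not independent readings.

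Cyp4a14 followed that pair less closely. Its r with the 5 probes was 0.538 to 0.595 and its rho 0.620 to 0.690, with adjusted permutation p-values of at most 0.000168 for r. Within males r was 0.560 to 0.597 and within females 0.538 to 0.645, and within the wash batches it ran from 0.522 to 0.754. Without the 2 mice farthest from the median of 1 probe of the pair, r was 0.510 to 0.617. That probe was Cyp4a10 in its pairs with Cyp4a14, so mice extreme for Cyp4a14 alone could stay in those. Cyp4a12a and Cyp4a12b had r = 0.894 and rho = 0.817 over the 23 males (adjusted permutation p = 0.0001273 for r), and r = 0.841 without the 2 mice farthest from the median of Cyp4a12a. Over the 24 females, where few values were above background, r was 0.155 (adjusted permutation p = 0.6695). The Cyp4a12a probe also listed a Cyp4a12b transcript, so this pair too is not made of independent readings. No pair of a Cyp4a12 probe with another gene passed, with r from -0.165 to -0.062 over all mice.

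**Figure D4:**
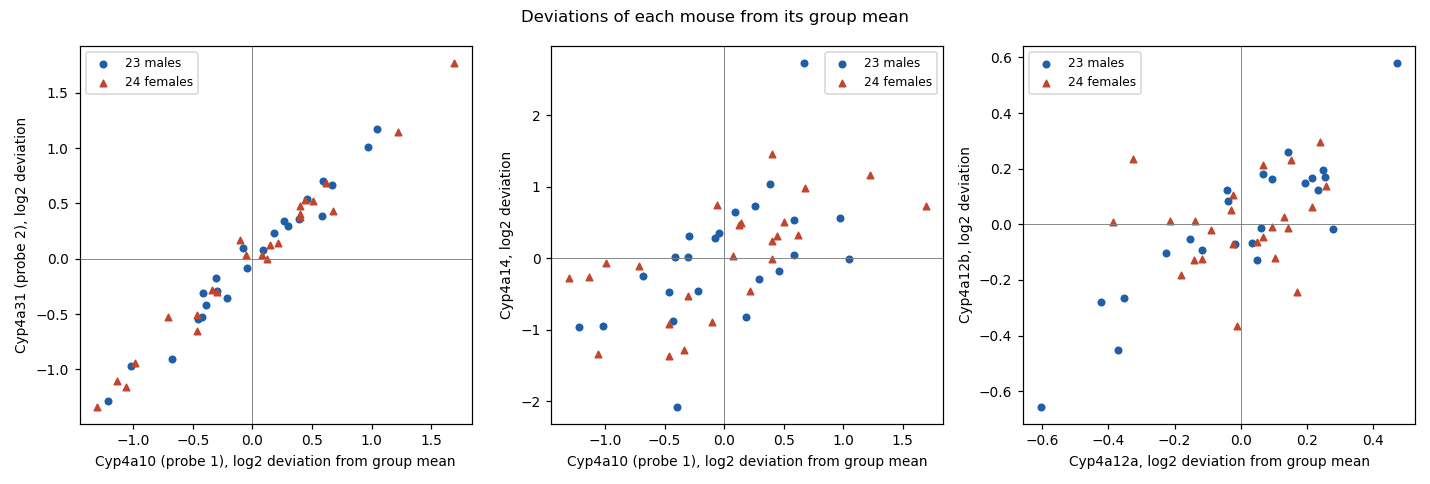
Deviation of each mouse from its group mean (log2) for 3 pairs of probes, with males as blue circles and females as red triangles. Cyp4a10 probe 1 and Cyp4a31 probe 2 (left) lie close to a line (r = 0.988), Cyp4a10 and Cyp4a14 (middle) scatter more widely (r = 0.595 for probe 1), and Cyp4a12a and Cyp4a12b (right) align in males (r = 0.894).

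Outside the subfamily, the genes with the nearest pattern over the 47 group-centred values differed between Cyp4a10 and Cyp4a14. For Cyp4a10 (probe 1) they were Acot1 (r = 0.856), Acot5 (0.845), Slc27a2 (0.767), Acot2 (0.763) and Chrna2 (0.76), of which Acot1, Acot2 and Acot5 encode acyl-CoA thioesterases and Slc27a2 a very-long-chain acyl-CoA synthetase. Acot1 and Acot2 are near copies of each other and may share signal. For Cyp4a14 the highest were a transcript with no gene symbol (0.73), Sgip1 (0.723), the galectin gene Lgals4 (0.702), a second such transcript (0.702) and Lgals6 (0.669). For Cyp4a12a over the 23 males they included Hsd3b7 (0.809), Elovl3 (0.781), Pate2 (0.749) and Sirt4 (0.704). Without the 2 mice farthest from the median of the Cyp4a gene these r ran from 0.583 to 0.828. They were picked as the highest of all tested genes and are descriptions of these mice.

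The other Cyp4 genes (14 listed, 9 tested) did not share the ATB fall of Cyp4a14. None of the 9 was called in Pxr+/+ males, and their values ran from -0.22 (Cyp4v3) to 0.32 (Cyp4f14). Between the sexes in Pxr+/+ Cont mice Cyp4v3 was higher in males (0.43, adjusted p = 0.0108 by limma) and Cyp4f14 (-0.37), Cyp4f16 (-0.54) and Cyp4f18 (-0.54) were higher in females, by far less than Cyp4a12a. Of all tested probes, 28.7% were called higher in females and 1.97% higher in males in that comparison, so 3 of 9 lies near the share.

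The list of enzymes downstream of omega-hydroxylation held 19 genes, from alcohol dehydrogenases to peroxisomal thioesterases. In Pxr+/+ males none was called with ATB, 3 of 19 had a positive difference, and the median was -0.16 against 0.10 for all genes. The lowest were the thioesterase Acot3 at -0.95 (adjusted p = 0.194), the peroxisomal thiolase Acaa1b at -0.64 (adjusted p = 0.0792) and the carnitine acetyltransferase Crat at -0.58 (adjusted p = 0.12 by limma), which were chosen after their values were seen. In Pxr+/+ Cont mice 5 of 19 had a probe called higher in males and 8 higher in females, with the widest gaps at the dicarboxylic and acyl-CoA thioesterases Acot3 (-4.14), Acot4 (-1.91) and Acot6 (-0.98) and at the bifunctional enzyme Ehhadh (-0.76). The counts were 2 and 9 in Pxr+/+ ATB, 2 and 6 in Pxr-/- Cont and 2 and 10 in Pxr-/- ATB mice. A gene counted when any of its probes was called, whereas the shares that follow are of single probes. Of all tested probes, 28.7% were called higher in females and 1.97% higher in males in Pxr+/+ Cont mice, and the shares higher in females were 8.16%, 12.6% and 23.5% in the other 3 comparisons. Acot3, Acot4, Ehhadh and Crat had the widest gaps there, of -5.10, -2.09, -0.96 and -0.87 in Pxr+/+ ATB mice and -5.52, -2.43, -1.28 and -1.09 in Pxr-/- ATB mice.

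Of the 30 PPARA target genes outside the subfamily, 1 was called with ATB in Pxr+/+ males. It was Retsat, a retinol saturase, at -0.89 (SE 0.23, adjusted p = 0.0432 by limma). In that comparison 4 of 30 had a positive difference and the median was -0.16, against 0.10 for all genes. Fgf21 at -1.23 (adjusted p = 0.0908), Acot1 at -1.04 (0.163), Vnn1 at -0.94 (0.0628) and Acot2 at -0.81 (0.0513 by limma) did not pass, and were chosen after their values were seen. In Pxr-/- males 4 of 30 were positive with a median of -0.13 against 0.02, in Pxr+/+ females 17 with 0.06 against -0.06, and in Pxr-/- females 18 with 0.03 against 0.05. None was called in these 3 comparisons. Between the sexes, 1 of 30 was called higher in males and 4 higher in females in Pxr+/+ Cont mice. The 5 were Cidec (1.43), which coats lipid droplets, and Pdk4 (-1.04), Cd36 (-0.89), Acot2 (-0.87) and Mgll (-0.46). Called higher in females were 9 of 30 in Pxr+/+ ATB, 8 in Pxr-/- Cont and 18 in Pxr-/- ATB mice, with 0 higher in males. Of all tested probes, 28.7% were called higher in females in Pxr+/+ Cont, 8.16% in Pxr+/+ ATB, 12.6% in Pxr-/- Cont and 23.5% in Pxr-/- ATB mice. These are shares of single probes, whereas a listed gene counted when any of its probes was called. The widest gaps in Pxr+/+ ATB mice were at Pdk4 (-1.83), Acot2 (-1.76), Acot1 (-1.60) and the pantetheinase Vnn1 (-1.25). In Pxr-/- ATB mice they were at Acot2 (-2.03), Acot1 (-1.88), Pdk4 (-1.60) and the hormone gene Fgf21 (-1.57).

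**Figure D5:**
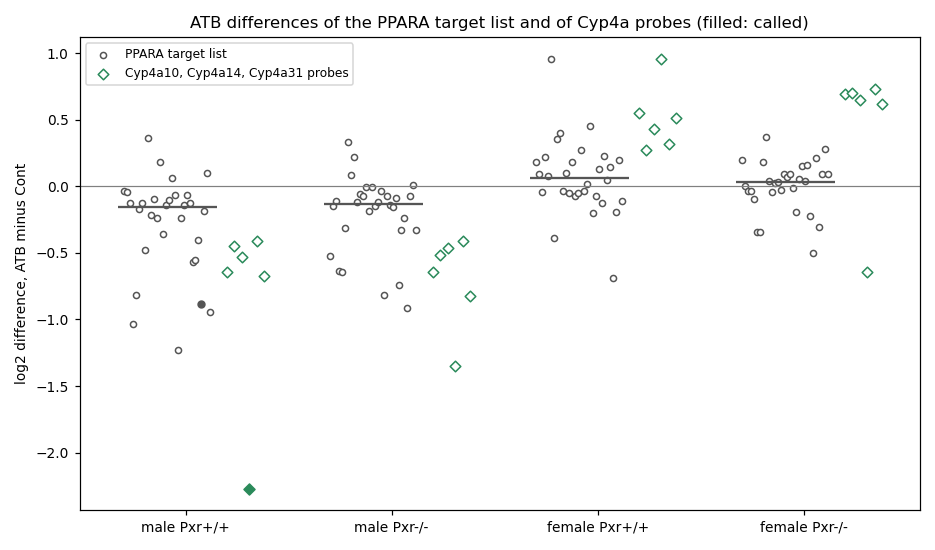
ATB minus Cont difference (log2, vertical axis) of the 30 PPARA target genes (circles, with their median as a line) and of the 6 Cyp4a10, Cyp4a14 and Cyp4a31 probes (diamonds) in the 4 combinations of sex and genotype. Filled symbols were called. Cyp4a14 at -2.27 and Retsat at -0.89 in Pxr+/+ males are the 2 filled symbols, and the list medians are -0.16, -0.13, 0.06 and 0.03 from left to right.

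Markers of other liver cell types were compared alongside. For macrophages, 11 of 12 genes had a probe called higher in females and 1 had a probe called higher in males in Pxr+/+ Cont mice, and the mean log2 level of the list ran from 11.07 to 11.99 in those females and from 10.09 to 10.54 in the males. The macrophage markers called higher in females were 6 of 12 in Pxr+/+ ATB, 5 of 12 in Pxr-/- Cont and 0 of 12 in Pxr-/- ATB mice. In each of these comparisons 1 was called higher in males. Of all tested probes, 8.16% were called higher in females in Pxr+/+ ATB and 12.6% in Pxr-/- Cont mice. In Pxr-/- ATB mice the macrophage list ran from 9.83 to 10.85 in females (SD 0.40) and from 9.26 to 11.79 in males (SD 0.85). Called higher in females there were 4 of 8 stellate, 4 of 10 lymphocyte and neutrophil, 2 of 8 endothelial and 1 of 6 cholangiocyte markers. Of all tested probes, 23.5% were called higher in females in that comparison, close to the endothelial and cholangiocyte counts. These shares are of single probes, whereas a marker counted when any of its probes was called. With ATB in Pxr+/+ males none of the macrophage (12), endothelial (8), stellate (8), cholangiocyte (6) or lymphocyte and neutrophil (10 tested of 12) markers was called in either direction, and 1 of 10 hepatocyte markers was called higher. The mean level of the hepatocyte list ran from 15.98 to 16.19 in Pxr+/+ Cont males and from 16.22 to 16.46 in Pxr+/+ ATB males, without overlap, and that of the macrophage list from 10.09 to 10.54 and from 9.42 to 10.67. In Pxr+/+ Cont mice 5 of 8 endothelial, 6 of 8 stellate, 0 of 6 cholangiocyte and 5 of 10 lymphocyte and neutrophil markers were called higher in females. Of all tested probes, 28.7% were called higher in females and 1.97% higher in males in that comparison. Between Pxr-/- and Pxr+/+ Cont females, 8 of 12 macrophage and 5 of 8 endothelial markers were called lower in Pxr-/- mice. Of all tested probes, 3.01% were called in either direction in that comparison. The part of these markers in the differences of the Cyp4a genes was not tested.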

How the data were processed

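Liver RNA of 47 mice was hybridised to one-colour Agilent arrays, 1 mouse per array. Per the labels, the authors scanned the arrays and extracted signals with Agilent Feature Extraction 10.10.1.1, and the deposited scanner files hold intensities per spot, of which the median signal was used. The series table holds log2 values that the authors had corrected for wash batch and normalised with CrossNorm, and it served as an alternative.

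The log2 median signals were treated alike. The 422 spots marked non-uniform were left out, which drops a value from a fit. A probe was tested if any group had 5 or more arrays on which its signal was well above background. The wash batch was removed, CrossNorm was rebuilt with 300 random draws, and limma 3.58.1 (R 4.3.3) was fitted to all 47 arrays with group and wash batch as terms. P-values were adjusted by the Benjamini-Hochberg method over all tested probes. The scripts were tested on simulated data. Depth does not apply to arrays, and their number limits the precision. Mice within a group were separate animals.

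Alternatives were quantile normalisation, background-corrected signal less its 75th percentile, normexp (offset 50), the authors' values, other filters, no wash term, slide or replicate number as a block, single wash batches, only the groups compared, and leaving out each mouse. Correlations used 100000 permutations within groups (numpy 2.4.6, scipy 1.17.1). For a gene with several probes, lists used the brightest probe for values and any probe for calls.

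The members and gene lists were chosen with earlier results of these data known. The text names each member with every probe, up to 4 called genes of largest change per list in a comparison that called a member, and the 5 genes most correlated with Cyp4a14, Cyp4a10 and Cyp4a12a, except that some items are not reported here. The lists were other Cyp4 genes, enzymes downstream of omega-hydroxylation, PPARA targets, receptors and partners, male-biased and female-biased genes, clock genes and markers of 6 cell types. Probe sequences and mm9 coordinates came from the array's annotation.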

Additional observations from a re-analysis of the deposited data

Results flagged for a closer look

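Each of the 8 probes was examined in each of the 8 groups, 64 sets of values, for 1 mouse that stood apart from the rest of its group by Dixon's criterion, which chance meets in about 1 in 20 sets. It was met in 3 of 64. Cyp4a14 in female Pxr+/+ ATB replicate 1 was 9.03, against 10.25 in the nearest mouse of its group. Cyp4a31 probe 2 in female Pxr-/- ATB replicate 1 was 13.50, against 14.69 in the nearest. Cyp4a12a in female Pxr-/- Cont replicate 2 was 4.20, against 4.56 in the nearest, where no mouse of the group was well above background.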

How the results depend on the processing

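The count of Cyp4a probes called between the sexes in Pxr+/+ Cont mice (5) was the least stable. It was 2 with quantile normalisation, with the background-corrected signal, with normexp, with the filter asking for all 47 arrays, within wash batch 1 and in a fit of the pair of groups alone. It was 3 with the authors' values, without a filter, without the wash term and within wash batch 2, and it ranged from 2 to 8 when single mice were left out. In Pxr+/+ ATB, Pxr-/- Cont and Pxr-/- ATB mice the count of 8 was 5 under the all-array filter, which removes Cyp4a14, Cyp4a12a and Cyp4a12b. Within wash batches 1 and 2 it was 4 and 3 in Pxr+/+ ATB and 3 and 3 in Pxr-/- Cont mice. With ATB in Pxr+/+ males the count of 1 was 0 under the all-array filter, within wash batches 1 and 2 and in a fit of that pair of groups (Cyp4a14 adjusted p = 0.0625 by limma), and it ranged from 0 to 1 when single mice were left out. With ATB in Pxr-/- males it rose from 0 to 1, Cyp4a14, with the background-corrected signal (-3.33, adjusted p = 0.0159 by limma). The count for the difference of ATB effects between Pxr+/+ males and females, 0, ranged from 0 to 1 when single mice were left out. Apart from the effect of the all-array filter and of fitting fewer mice, the cause was not tested. No call of a named Cyp4a probe reversed in sign. Wash batch 3 allowed no test.

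Replicate numbers did not pair the mice, since deviations of same-numbered mice had a median correlation of -0.0512 (lowest -0.395) against 0.00398 for other numbers. With the replicate number as a block the counts between the sexes were 5, 8, 8 and 8, that of ATB in Pxr+/+ males was 1, and the other 13 comparisons had 0, each equal to the count without the block.

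Signal near background limits Cyp4a14 in ATB males and Cyp4a12a and Cyp4a12b in females. Probes with shared transcripts cannot separate Cyp4a10 from Cyp4a32 or Cyp4a12a from Cyp4a12b, and 5 or 6 mice from few cages per group limit the precision of every difference.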

Other observations

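Gene lists outside the fatty acid pathways were measured alongside. Of 10 male-biased genes, 8 were called higher in males in Pxr+/+ Cont mice and 9 in each of the other 3 sex comparisons. Of all tested probes, 1.97% (Pxr+/+ Cont), 3.3% (Pxr+/+ ATB), 2.24% (Pxr-/- Cont) and 2.21% (Pxr-/- ATB) were called higher in males. The shares higher in females were 28.7%, 8.16%, 12.6% and 23.5%, in the same order. Hsd3b5 (7.75), Elovl3 (7.04), Slco1a1 (4.97) and Susd4 (4.08) had the widest fitted log2 differences in Pxr+/+ Cont mice. Of 10 female-biased genes, 10, 9, 10 and 10 were called higher in females in Pxr+/+ Cont, Pxr+/+ ATB, Pxr-/- Cont and Pxr-/- ATB mice, among them Sult2a2 (-10.73), Sult2a1 (-10.50) and Cyp2b13 (-8.89) in Pxr+/+ Cont mice. With ATB in Pxr+/+ males, 2 female-biased genes fell, the cytochrome P450 genes Cyp2b9 (-2.46, adjusted p = 2.18e-06) and Cyp3a41a (-1.73, adjusted p = 7.3e-12 by limma). Cyp2b9 also fell with ATB in Pxr-/- males (-1.68, adjusted p = 0.0171 by limma). Cyp2b9 and Cyp3a41a have close copies in their gene clusters and may share signal with them.

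Among 15 receptors and partners, none was called with ATB in Pxr+/+ males, where Ppara itself differed by 0.12 (SE 0.16, adjusted p = 0.711 by limma). In Pxr+/+ Cont mice 1 was called higher in males, the repressor Bcl6 (1.30), and 8 higher in females, among them the transcription factor Cux2 (-4.61), the prolactin receptor Prlr (-2.80) and the P450 reductase Por (-1.19), which passes electrons to Cyp4a enzymes. In Pxr-/- ATB mice 7 were called higher in females, among them Cux2 (-3.77), Prlr (-2.81), Por (-1.04) and Nr1i3 (-1.04). Of all tested probes, 28.7% were called higher in females in Pxr+/+ Cont and 23.5% in Pxr-/- ATB mice. Of 15 clock genes, 14 were tested and none was called with ATB in Pxr+/+ males, where 11 had a positive difference and the median was 0.39 against 0.10 for all genes. Between the sexes Npas2 was called in Pxr+/+ Cont mice (-0.36) and Per2 in Pxr+/+ ATB mice (1.099), and 1 clock gene, Clock, had a probe called higher in females in Pxr-/- ATB mice, although not its brightest.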
